A study of Macaca mulatta with 24 samples.

Results

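Interferon-stimulated genes are genes that cells transcribe in response to interferons. The genes described here are 39 textbook members of that response, matched by gene symbol to a table of normalized read counts from cultured airway epithelium exposed to wood smoke. Of the 39, 37 had a row under their symbol, and 33 reached a normalized count of 10 in at least 4 libraries, among 14062 genes that did so and 35432 genes in the table. IFI27, IFI44L, EPSTI1 and HERC5 had a row but missed that limit. USP18 and IFIH1 had no row under their symbol. A row without a symbol, ENSMMUG00000003272, carries the name USP18 in the reference name table and ranged from 4.99 to 22.5. It was not counted as a member.

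The cultures were tracheobronchial epithelial cells of 4 adult female rhesus macaques (S1 to S4, aged 5463, 2930, 2238 and 1128 days), grown on inserts at an air–liquid interface in medium with retinoic acid. The 6 groups were filtered air and diluted whole wood smoke after a single 6-hour exposure (1 day), after 6 hours on each of 5 days, and after those 5 days plus 7 days of recovery. Each group held 1 library from each of the same 4 animals, 24 in all. Air cultures serve as controls at each time, and no group was given interferon or a virus. Age and animal cannot be told apart.

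Type I and type III interferons bind receptors whose JAK1 and TYK2 kinases activate transcription factors, STAT2 among them. STAT2 and IRF9 are parts of the complex ISGF3, which binds interferon-stimulated response elements in the promoters of these genes. The products sense or degrade viral RNA, block viral entry, translation and assembly, tag proteins with ISG15, and amplify the response through IRF1 and IRF7. Airway epithelium keeps a low tonic level of many of these genes and raises them strongly on infection with respiratory viruses.

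The interferon genes themselves gave almost no signal. Of 11 listed ligand genes 6 had a row. IFNB1, IFNK and IFNG were listed at 0 in all 24 libraries, and IFNA13, IFNL1 and IFNW1 reached 1.60, 0.957 and 0.845 at most. The chemokines CXCL10 and CXCL11, which are strongly induced by interferon, stayed at or below 2.46 and 1.53, and CXCL9 was listed at 0 throughout. The type I receptor chain IFNAR1 was present in every library, from 501 to 1154. Low values limit what can be read here, since counting error cannot be computed from normalized counts.

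The epithelial markers EPCAM (889 to 3291) and CDH1 (298 to 3527) were present in every library. The leukocyte markers PTPRC, CD3E and CSF1R, the plasmacytoid dendritic cell marker CLEC4C, the endothelial marker CDH5 and the fibroblast marker DCN never reached 10. Other markers of these lists did. PDGFRA of the fibroblast list (340 to 685) and TCF4 of the dendritic cell list (161 to 646) were present in every library. So were PECAM1 (11.8 to 180) and VWF (50.9 to 121) of the endothelial list. The fibroblast markers COL1A1 and COL1A2 reached 33.9 and 21.7 at most, and the dendritic cell marker GZMB 25.3. In bulk RNA, fewer cells of a type and less RNA per cell cannot be told apart. Of the listed markers of other cells, 2 of 6 for leukocytes reached 10 (CD68, 194 to 932, and LAPTM5, 1.01 to 58.8), and their sums overlapped between air and smoke at each time (at recovery 605 to 939 and 533 to 760). Between 12927 and 13255 genes reached 10 in each library, and normalized totals lay between 11.8 M and 15.2 M. The culture of S1 kept in air for 5 days, called the S1 5-day air control below, was least like the rest: its median correlation was 0.860, and those of the remaining 23 were 0.931 to 0.956. Its mitochondrial share was 8.49%, against 2.95% to 3.67% in the other 5-day air libraries, and its total of 15.2 M was the highest.

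That library also differed in these genes. It was the highest of all 24 for 9 of 33 members (BST2, IFI35, IFI6, IRF1, IRF7, IRF9, ISG15, OASL and SP110) and the lowest for 4 (ADAR, PARP14, PARP9 and STAT2). It held the same place for 27.6% and 28.3% of all genes tested, so the first count of members is near that background and the second below it. ISG15, the ubiquitin-like modifier of the response, was at 184 there and at 12.0 to 47.0 in the other 23 libraries. IRF7, the factor that amplifies type I interferon production, was at 175 against 20.7 to 68.1. Member calls with the block and without it are given beside those with all libraries.

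**Figure D1:**
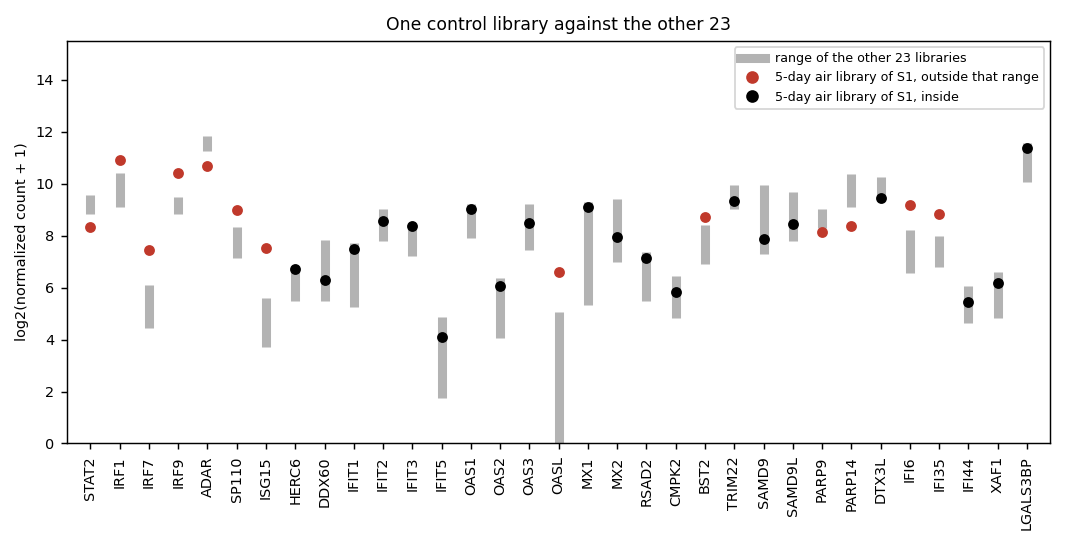
Level of each of the 33 members, as log2(normalized count + 1), in the S1 5-day air control (points) against the range of the other 23 libraries (grey bars). Red points lie outside the bars: 9 members above and 4 below.

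The first question was whether smoke changed these genes at any of the 3 times. Smoke and air were compared with limma on log2(value + 1), with p adjusted by Benjamini-Hochberg over all 14062 genes. At 1 day, 5 days and recovery, 0 of 33 members passed an adjusted p of 0.05 without a block. The share of all genes that passed was 0.0284%, 0.0711% and 0.242%, so few members would pass at the same rate. At an unadjusted p under 0.05 there were 1, 3 and 2 members. The median log2 difference over the members was −0.02 at 1 day, −0.11 at 5 days and 0.14 at recovery, beside medians of 0.00, 0.01 and 0.01 over all genes tested. At 1 day 14 members were above 0 and 19 below, at 5 days 10 and 23, and at recovery 19 and 14.

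Within animals, the member medians were small. At 1 day they were −0.01, −0.12, −0.07 and −0.05 (S1 to S4). At 5 days they were −0.10, −0.12, −0.18 and −0.16, below 0 in 4 of 4 animals, with 12 to 16 of 33 members higher in smoke in each animal. At recovery S2 (0.24) and S4 (0.16) were above 0, and S1 (−0.02) and S3 (−0.04) slightly below.

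**Figure D2:**
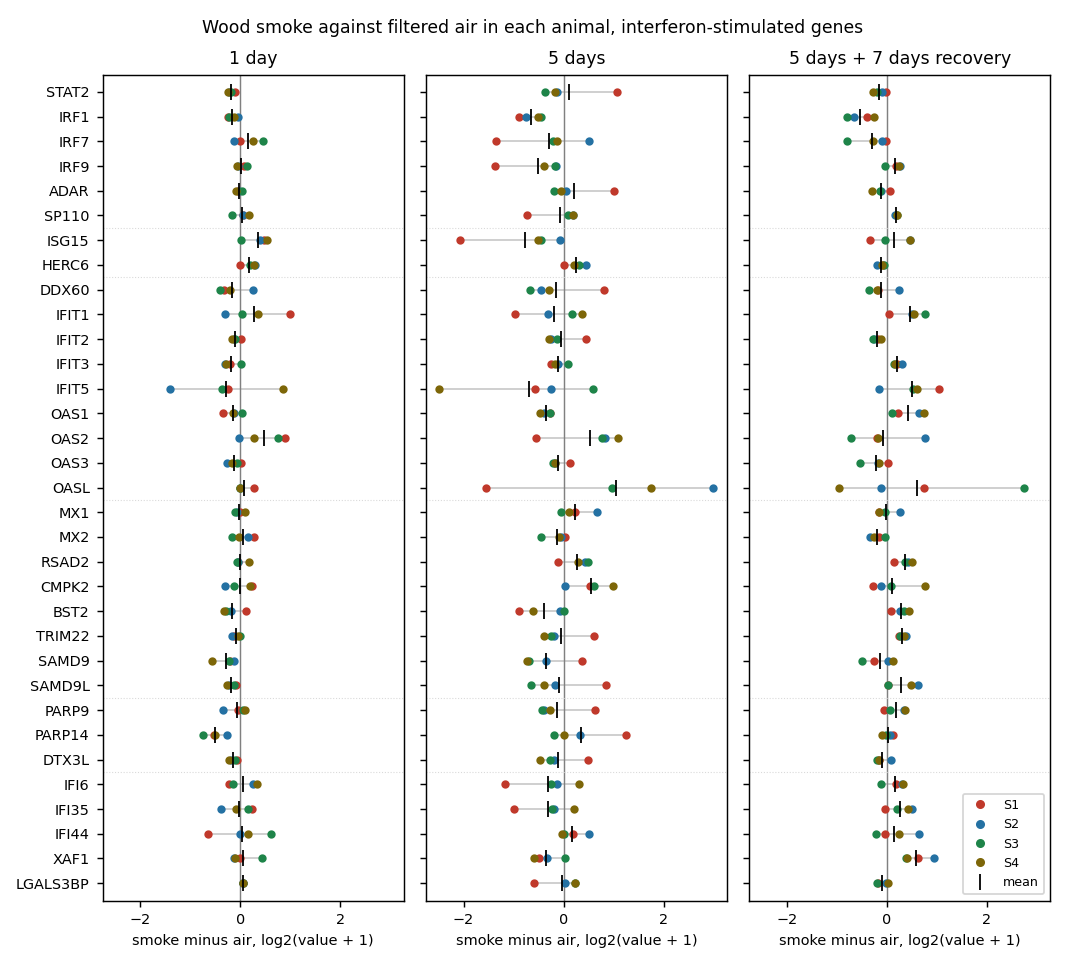
Smoke minus air of the same animal, on the log2(value + 1) scale, for the 33 members ordered by role; points are animals and black ticks their mean. At 1 day most points lie close to 0, at 5 days the red points of S1 often lie on the opposite side from the other animals, and at recovery TRIM22, OAS1 and XAF1 have 4 points above 0 and IRF1 4 points below.

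The animals are pairs, so a second fit held animal as a block. In it 0 members passed at 1 day (0.0782% of all genes did, and 1 member had an unadjusted p under 0.05). At 5 days 1 passed (1.69% of all genes, 0.796% in the lower direction) and at recovery 1 (3.41%, 2.28% lower). The member was IRF1 both times, lower in smoke.

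Among the regulators, IRF1 is a transcription factor induced by interferons and by NF-kappaB that acts directly on many antiviral promoters. At 5 days it was at 1926, 926, 926 and 911 in air (S1 to S4) and at 1031, 549, 677 and 636 in smoke. The air values of S2 to S4 lie above the smoke values of S2 to S4 and below that of S1, and smoke was lower in 4 of 4 animals. The log2 difference was −0.66 ± 0.25 (SE) with a limma adjusted p of 0.43 without a block, and −0.66 ± 0.14 with an adjusted p of 0.023 with it. Without the S1 5-day air control the blocked difference was −0.53 (adjusted p = 0.014). The blocked call was lost without the 5-day smoke library of S1 (adjusted p = 0.057) or of S2 (0.071), and without the whole of S2, S3 or S4 (up to 0.16).

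At recovery IRF1 was at 1343, 1373, 1015 and 931 in air and at 1025, 865, 581 and 778 in smoke, again lower in 4 of 4 animals, with groups that overlapped only through S1. The difference was −0.53 ± 0.25 (adjusted p = 0.59) without a block and −0.53 ± 0.14 (adjusted p = 0.039) with it. This call was lost on leaving out any of 6 of the 8 libraries (adjusted p from 0.056 to 0.18): the air libraries of S2, S3 and S4 and the smoke libraries of S1, S3 and S4. It was also lost without the whole of S2, S3 or S4 (up to 0.36). At 1 day IRF1 was at 1163, 758, 660 and 751 in air and 979, 733, 568 and 690 in smoke, a difference of −0.16 ± 0.14 with the block (adjusted p = 1.00). IRF1 was thus lower in smoke in 4 of 4 animals at each of the 3 times. At the single times 15.2%, 9.91% and 19.4% of all genes were lower in 4 of 4 animals. The times are repeated measures of the same 4 animals, and the share of all genes lower at all 3 is not given here. The change of the smoke difference between times did not pass (with the block, adjusted p = 0.47 between the first pair of times and 0.73 between the later pair).

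The summed level of the basal cell markers also differed at recovery. The sum (KRT5, TP63, NGFR and ITGA6, 4 of 5 listed with a row) was 39440 to 49480 in air and 13752 to 31066 in smoke. At 5 days its ranges overlapped (25626 to 48263 in air, 27097 to 32963 in smoke). The sum was mostly KRT5 (12227 to 57575 over all 24 libraries). TP63, NGFR and ITGA6 reached 960, 2208 and 3207 at most, so their own differences cannot be read from it. The part of the basal sum in the recovery values was not tested.

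STAT2 and IRF9, both of ISGF3, did not pass between smoke and air at any of the 3 times. At 1 day STAT2 was at 709, 746, 682 and 724 in air and at 655, 638, 601 and 611 in smoke, so all 4 smoke values lay below all 4 air values. The difference was −0.19 ± 0.15 with the block (adjusted p = 1.00) and −0.19 ± 0.08 without the S1 5-day air control (adjusted p = 0.27). IRF9 at 5 days was at 1342, 536, 725 and 618 in air and at 518, 486, 648 and 473 in smoke, lower in 4 of 4 animals. Its difference of −0.52 ± 0.17 with the block (adjusted p = 0.12) became −0.22 ± 0.08 without the S1 5-day air control (adjusted p = 0.089). ADAR, the RNA editing enzyme that limits sensing of the cell's own double-stranded RNA, differed by −0.03 ± 0.14, 0.21 ± 0.14 and −0.12 ± 0.14 at the 3 times with the block.

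The ISG15 system attaches ISG15 to proteins. ISG15 at 1 day was at 33.6, 12.0, 12.5 and 16.7 in air and at 47.0, 16.1, 12.7 and 24.6 in smoke, higher in 4 of 4 animals, with a blocked difference of 0.35 ± 0.37 (adjusted p = 1.00). At 5 days smoke was lower in 4 of 4 animals (184, 16.8, 22.7 and 24.1 in air, 42.8, 16.0, 16.3 and 16.5 in smoke). That difference was −0.78 ± 0.37 (adjusted p = 0.27), and −0.25 ± 0.29 without the S1 5-day air control. HERC6, a HERC-family ubiquitin ligase, was higher in smoke in 4 of 4 animals at 5 days by a small margin (103, 45.2, 64.1 and 53.3 in air, 104, 61.8, 79.5 and 61.4 in smoke) and did not pass.

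Among the RNA-binding effectors, OAS1 makes oligoadenylates when it binds double-stranded RNA. At 5 days it was at 523, 501, 285 and 518 in air and at 433, 384, 237 and 372 in smoke, lower in 4 of 4 animals (log2 −0.35 ± 0.12, adjusted p = 0.15 with the block). At recovery it was at 464, 378, 246 and 325 in air and at 542, 587, 266 and 540 in smoke, higher in 4 of 4 animals (0.43 ± 0.12, adjusted p = 0.066). The smoke difference of OAS1 thus had opposite signs at the 2 times in every animal. Its change from 5 days to recovery was 0.78 ± 0.18 on the log2 scale and passed with the block (limma adjusted p = 0.021), where 3.56% of all genes passed, 1.42% in the higher direction. It did not pass without the block (adjusted p = 0.47), where 0 of 33 members did (2 at an unadjusted p under 0.05) and 0.348% of all genes. The blocked call was lost without the 5-day smoke library of S1 (adjusted p = 0.052) or the recovery smoke library of S4 (0.056), and without the whole of S2, S3 or S4 (up to 0.28). With the block and without the S1 5-day air control 5 members passed for this change, all upward. Of all genes 11.3% passed in either direction, and 739 of 14062 passed upward. The members were OAS1, TRIM22 (0.56 ± 0.11, adjusted p = 0.0040) and SAMD9L (0.65 ± 0.16, adjusted p = 0.012). The others were PARP9 (0.51 ± 0.13, adjusted p = 0.015) and IRF9 (0.38 ± 0.10, adjusted p = 0.021). For the change from 1 day to 5 days, 0 members passed in either fit, with 1 member at an unadjusted p under 0.05 without the block and 4 with it (0.0142% and 0.0427% of all genes passed, and 0.306% with the block and without that control, where 0 members did).

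IFIT1 and OAS3 did not pass in a smoke contrast. The blocked differences of IFIT1, which binds viral RNA lacking a host cap, were 0.27 ± 0.28, −0.18 ± 0.28 and 0.46 ± 0.28 at the 3 times. Those of OAS3 were −0.13, −0.11 and −0.21, each ± 0.10. Reads shared between the paralogs of the IFIT, OAS and MX families were divided by the authors' counting in a way the sources do not describe, so values of single paralogs are uncertain to that extent.

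PARP14, a mono-ADP-ribosyltransferase that works beside the PARP9 and DTX3L pair, separated the groups at 1 day. It was at 1028, 761, 962 and 840 in air and at 711, 637, 574 and 593 in smoke, so every smoke value lay below every air value. Only PARP14 and STAT2 had this pattern among 33 members, and 2.59% of all genes had it. The reverse, every smoke value above every air value, held for 0 members at 1 day, 5 days and recovery (1.51%, 1.81% and 3.67% of all genes), and smoke below air for 0 members at 5 days and recovery (1.65% and 4.37%). The log2 difference was −0.51 ± 0.19 (limma adjusted p = 1.00 without a block, 0.90 with it). Without the S1 5-day air control, which is no part of this contrast but enters the estimate of the spread, the same difference had an SE of 0.08 and an adjusted p of 0.0030 with the block, where 0.960% of all genes passed. In that fit 1 member passed at 1 day. At 5 days smoke was higher in 3 of 4 animals, by 1.25 in S1, 0.32 in S2 and 0.01 in S4, and lower by −0.20 in S3 (mean 0.35). At recovery PARP14 was at 1214, 976, 945 and 912 in air and at 1327, 1023, 933 and 852 in smoke (0.02 ± 0.19 with the block).

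**Figure D3:**
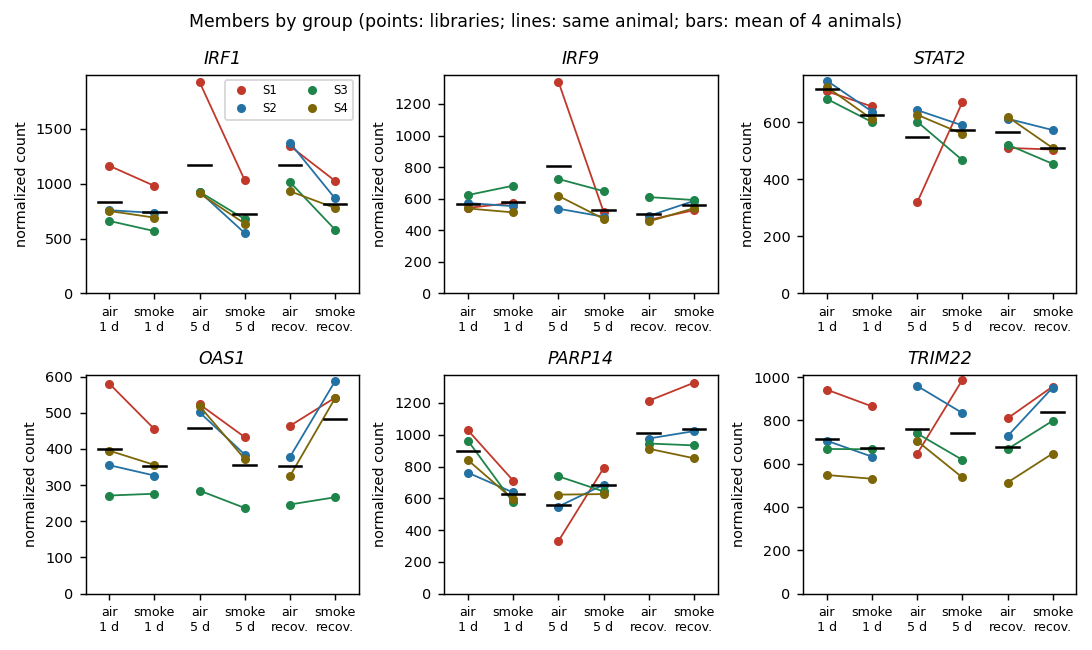
Normalized counts of 6 members in each library by group, with lines joining air and smoke of the same animal and black bars for group means (n = 4). IRF1 lines slope down at each time, OAS1 lines slope down at 5 days and up at recovery, and PARP14 values separate at 1 day; the 5-day air point of S1 lies far from the others for IRF1, IRF9, STAT2 and PARP14.

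Without the S1 5-day air control, the blocked fit called more members between smoke and air at each time, and more of all genes. At 5 days 5 members passed (6.26% of all genes): DTX3L, IRF1, PARP9 and SAMD9 were lower in smoke and OAS2 higher. For SAMD9, an antiviral factor that restricts poxviruses, the difference was −0.61 ± 0.12 (adjusted p = 0.0048), against −0.35 ± 0.17 (adjusted p = 0.29) with all libraries. DTX3L and PARP9 differed by −0.29 ± 0.07 (adjusted p = 0.014) and −0.33 ± 0.10 (adjusted p = 0.044), against −0.12 each with all libraries. At recovery 3 members passed (18.8% of all genes): IRF1 lower, and OAS1 (0.43 ± 0.11, adjusted p = 0.012) and TRIM22 (0.30 ± 0.08, adjusted p = 0.0088) higher. The share of members called at recovery lies below the share of all genes.

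TRIM22, a ubiquitin ligase that restricts several viruses and was singled out here after its values were seen, was at 810, 728, 668 and 513 in recovery air and at 957, 952, 799 and 647 in recovery smoke. Each animal's smoke value was the higher, by 0.24 to 0.39 on the log2 scale. XAF1, a pro-apoptotic interferon target, was also higher in 4 of 4 animals at recovery (35.4, 49.9, 27.6 and 36.6 in air, 55.2, 96.6, 36.1 and 48.4 in smoke) without passing (0.58 ± 0.22, adjusted p = 0.17 with the block). So were 7 further members, BST2, IFIT1, IFIT3, OAS1, RSAD2, SAMD9L and SP110. TRIM22 and XAF1 included, 9 of 33 members were higher in all 4 animals, where 18.9% of all genes were. Lower in all 4 animals were 6 (HERC6, IFIT2, IRF1, IRF7, MX2 and STAT2), where 19.4% of all genes were. At 5 days 2 members (CMPK2 and HERC6) were higher in all 4 animals and 4 (IRF1, IRF9, ISG15 and OAS1) lower, beside 9.54% and 9.91% of all genes. At 1 day 2 (ISG15 and LGALS3BP) were higher and 7 (DTX3L, IRF1, PARP14, SAMD9, SAMD9L, STAT2 and TRIM22) lower, beside 16.2% and 15.2%.

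The GTPases MX1 and MX2, which trap viral nucleocapsids, did not pass in a smoke contrast. MX1 differed by −0.02, 0.24 and −0.02 and MX2 by 0.06, −0.14 and −0.20 at the 3 times, with SEs of 0.16 and 0.19 with the block. Over all 33 members the blocked smoke differences at 1 day ran from −0.51 ± 0.19 (PARP14) to 0.47 ± 0.32 (OAS2). At 5 days they ran from −0.78 ± 0.37 (ISG15) to 1.04 ± 0.70 (OASL), and at recovery from −0.53 ± 0.14 (IRF1) to 0.60 ± 0.70 (OASL). The median SE was 0.17. OASL was at 0 in the 5-day air libraries of S2 to S4.

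Time in culture was the next comparison, read in air alone. Without a block 1 of 33 members passed between 1 and 5 days (3.98% of all genes) and 1 between 5 days and recovery (11.3%). Both were PARP14. It was at 330, 548, 739 and 623 in 5-day air, below its 1-day air values in each animal (log2 −0.73 ± 0.19, limma adjusted p = 0.033), and it rose again to recovery (0.90 ± 0.19, adjusted p = 0.0050). The fall was −0.50 and missed the threshold without the S1 5-day air control (adjusted p = 0.059, no block). It was also lost without the 1-day air libraries of S1 (0.11), S3 (0.086) or S4 (0.073). The rise held when any of the 8 libraries was left out (adjusted p at most 0.023), was 0.67 without the S1 5-day air control, and was lost without the whole of S2 (0.051).

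With animal as a block 6 members passed between 1 and 5 days (19.4% of all genes) and 10 between 5 days and recovery (28.4%). Over the first interval MX1, MX2 and IRF1 rose, as 9.88% of all genes did, and OAS3, ADAR and PARP14 fell, as 9.52% did. MX1 went from 273, 137, 41.7 and 243 to 542, 212, 96.2 and 456 in S1 to S4, higher in 4 of 4 animals at very different levels (0.93 ± 0.16, adjusted p = 0.0011). MX2 went from 135, 391, 176 and 128 to 245, 679, 384 and 181 (0.82 ± 0.19, adjusted p = 0.0071). OAS3 went the other way in every animal, from 584, 493, 343 and 539 to 358, 343, 228 and 391 (−0.57 ± 0.10, adjusted p = 0.0012). The calls of MX1, MX2 and OAS3 held when any of the 8 libraries was left out, and those of MX1 and OAS3 also without any 1 animal. That of MX2 was lost without the whole of S3 (adjusted p = 0.060). That of ADAR (−0.49 ± 0.14, adjusted p = 0.024) was lost without the 1-day air library of S1 or S4 (adjusted p up to 0.078). That of IRF1 (0.44 ± 0.14, adjusted p = 0.032) was lost without any of the 4 libraries of 1-day air or the S1 5-day air control (adjusted p up to 0.079). The blocked call of PARP14 was lost without the S1 library of 1-day air (adjusted p = 0.051).

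Over the second interval SAMD9, DDX60, CMPK2, MX2 and PARP14 rose, as 14.2% of all genes did, and BST2, IFI35, IRF9, ISG15 and OAS1 fell, as 14.1% did. SAMD9 went from 232, 576, 262 and 261 to 865, 957, 502 and 429 (1.07 ± 0.17, adjusted p = 0.00032). DDX60, an RNA helicase that assists RIG-I signalling, went from 78.0, 159, 70.4 and 62.9 to 220, 170, 150 and 117 (0.89 ± 0.23, adjusted p = 0.0082). BST2, or tetherin, which holds budding virions at the cell surface, went from 422, 343, 281 and 213 to 198, 183, 177 and 143 (−0.81 ± 0.16, adjusted p = 0.0017). IFI35, which binds NMI, went from 450, 167, 202 and 173 to 166, 111, 132 and 119 (−0.79 ± 0.18, adjusted p = 0.0035). These 4 calls and the blocked call of PARP14 held without any single library, and all but that of DDX60 also without any 1 animal. DDX60 lost its call without the whole of S4 (adjusted p = 0.063). The other 5 were lost without at least 1 library: IRF9 without the recovery library of S1 (adjusted p up to 0.072), and CMPK2 without that of S1 or S2 or the 5-day library of S4 (up to 0.067). ISG15 lost its call without the 5-day library of S1 or the recovery library of S1, S2 or S4 (up to 0.22), and MX2 without the 5-day library of S1 or S4 or the recovery library of S1, S3 or S4 (up to 0.12). OAS1 lost its call without the 5-day library of S2 or S4 or the recovery library of S1, S2 or S4 (up to 0.11). Both intervals share the 5-day air libraries, so opposite signs in the pair of intervals are not independent.

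With the block and without the S1 5-day air control, 6 members passed over the first interval (18.6% of all genes) and 9 over the second (27.1%). IRF1 was no longer called in the first, nor ISG15 and MX2 in the second, and TRIM22 was called in both, higher and then lower (0.29 ± 0.08, adjusted p = 0.019, and −0.36 ± 0.08, adjusted p = 0.0033). Other measures moved with time in air too. The summed leukocyte list went from 197 to 476 at 1 day to 541 to 825 at 5 days and 605 to 939 at recovery, with its defining markers PTPRC, CD3E and CSF1R below 10 throughout. The basal sum, mostly KRT5, went from 43321 to 61218 at 1 day to 25626 to 48263 at 5 days. The mitochondrial share was 5.71% to 8.82% at 1 day, 2.95% to 8.49% at 5 days and 3.81% to 6.96% at recovery. The part of these in the values over time was not tested.

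**Figure D4:**
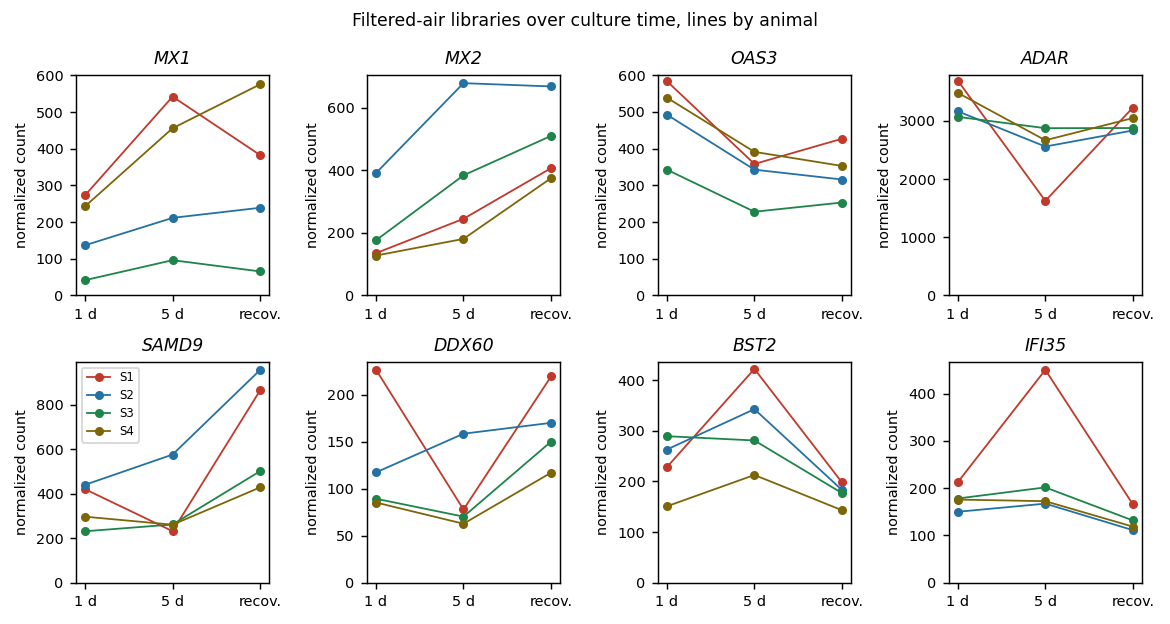
Normalized counts of 8 members in the filtered-air libraries at 1 day, 5 days and recovery, with a line per animal. MX1 and MX2 are higher and OAS3 lower at 5 days than at 1 day in 4 of 4 animals, SAMD9 is highest at recovery, and the red S1 point at 5 days departs from the other lines for ADAR, DDX60 and IFI35.

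Differences between animals exceeded those between groups for most members. The range of the 4 animal means was larger than the range of the 6 group means for 21 of 33 members (63.6%), against 39.0% of all genes tested. The median range of animal means was 0.88 on the log2 scale for the members and 0.48 for all genes. The median range of group means was 0.65 and 0.60. These are descriptions over 4 animals, without a test.

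In 6 of 33 members 1 animal had all 6 of its values above or all below those of the other 3 animals, as did 6.88% of all genes. S1, the oldest animal, was the high one for OASL, IFI6, IFIT3 and SP110. OASL reached 10 in 5 libraries, all of S1, so it was tested only because of that animal and its separation was fixed by the filter. This relative of the OAS enzymes, itself catalytically inactive, ranged from 8.72 to 96.6 in S1 and from 0 to 6.98 in the other 3 animals. IFI6, a small membrane protein that limits flavivirus replication, ranged from 229 to 578 in S1 and from 92.9 to 191 elsewhere. IFIT3, a partner of IFIT1, ranged from 249 to 328 in S1 and from 146 to 239 elsewhere, and SP110, a nuclear body protein, from 236 to 511 and from 141 to 203. Without the S1 5-day air control the S1 values of all 4 still lay above the rest.

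S3 was the low animal for MX1 and OAS1. MX1 ranged from 38.9 to 96.2 in S3 and from 131 to 632 in the other 3 animals, and OAS1 from 237 to 285 and from 325 to 587. S3 was not low throughout: it had the highest median of IFIT1 (167, against 88.3, 52.6 and 81.7 in S1, S2 and S4), and its MX2 values (157 to 511) overlapped those of each other animal. MX2 was highest by median in S2 (594, range 391 to 679) and lowest in S4 (176, 125 to 375). LGALS3BP, a secreted glycoprotein that binds galectins, was lowest by median in S1 (1188, against 2777, 2627 and 2296). The members with the smallest range of animal means were ADAR, PARP9 and PARP14 (0.10, 0.16 and 0.17 on the log2 scale), and those with the largest were OASL, MX1 and IFIT1 (4.15, 2.66 and 1.65), with OASL subject to the same limit.

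**Figure D5:**
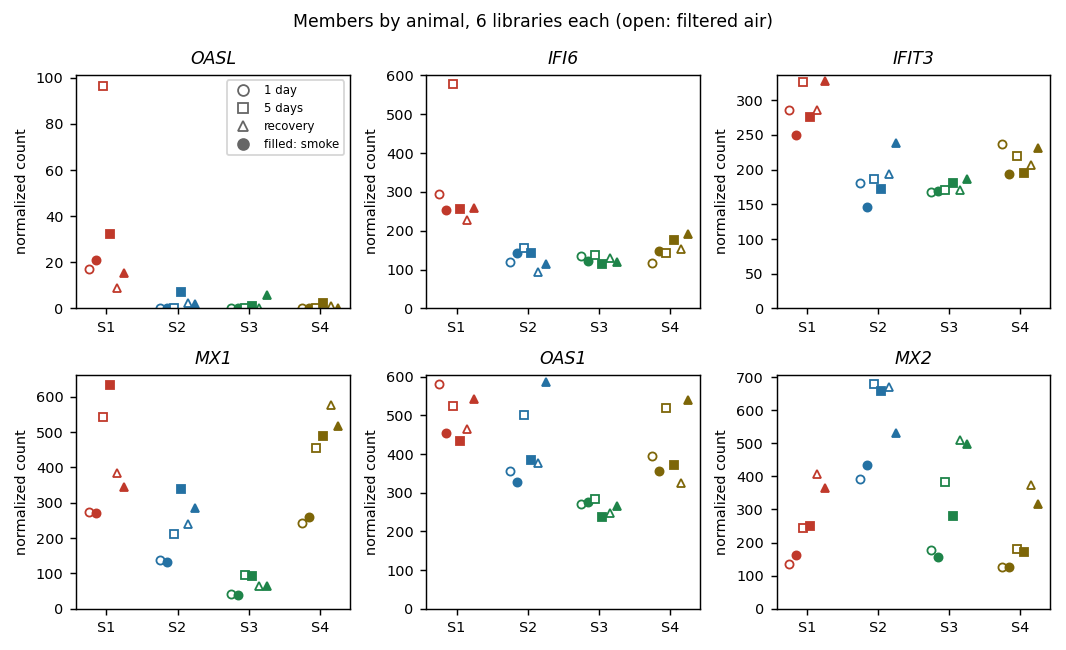
Normalized counts of 6 members in the 6 libraries of each animal; open symbols are filtered air, filled symbols smoke, and shapes give the time. S1 lies above the other animals for OASL, IFI6 and IFIT3, S3 lies below them for MX1 and OAS1, and for MX2 the medians differ while the ranges overlap.

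The 4 members below the limit of 10 in 4 libraries had their highest values in S1. IFI27, among the most inducible of these genes in blood and epithelium, reached 26.7 in the S1 5-day air control and stayed at or below 5.81 in S2 to S4. IFI44L reached 16.5 in S1, HERC5, the ligase that attaches ISG15, 13.8, and EPSTI1 3.64.

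The other genes of the pathway were read from 6 further lists, with 65 genes tested outside the members. The lists hold 68 tested entries, since some genes stand in more than 1 list. In limma without a block 0 passed in any smoke contrast, where 0.0284%, 0.0711% and 0.242% of all genes did. At the 3 times 1, 7 and 2 entries had an unadjusted p under 0.05. With the block 0 passed at 1 day and 0 at 5 days (1 and 16 entries at an unadjusted p under 0.05). At recovery 2 of the 68 passed, both higher in smoke. With the block 0.0782%, 1.69% and 3.41% of all genes passed at the 3 times in either direction. At recovery 160 of 14062 genes passed in the higher direction. The 2 entries are too few to be read against that count. They were B2M, the light chain of MHC class I (1 of 12 antigen presentation genes tested), and PLSCR1, a phospholipid scramblase with antiviral activity (1 of 22 other inducible effectors). B2M was at 15080, 13073, 12066 and 11685 in recovery air and at 16558, 16864, 13740 and 16878 in recovery smoke (0.31 ± 0.08, adjusted p = 0.041). PLSCR1 was at 1167, 3323, 1445 and 2724 in air and at 1569, 4427, 1875 and 4104 in smoke, higher in 4 of 4 animals (0.45 ± 0.09, adjusted p = 0.011). Neither passed without the block (adjusted p = 0.44 and 0.94), and both passed with it when the S1 5-day air control was left out (0.0031 and 0.000225). Other libraries were not left out for these genes.

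With the block and without that control more of the 68 entries passed. At 1 day 0 were higher and 2 lower (0.960% of all genes passed), at 5 days 2 higher and 3 lower (6.26%), and at recovery 12 higher and 6 lower (18.8%). At 5 days PSME2 and WARS1 were higher, and PTPN6 and SP100 were among the lower. At recovery the higher genes were 5 of antigen presentation (B2M, PSMB8, PSMB9, PSMB10 and PSME1), GBP3, IRF2, IRF3, NMI, PLSCR1, TRIM5 and UBE2L6, and the lower ones were GBP6, JAK1, MAVS, PML, RNF213 and ZC3HAV1. Those not called with all libraries were named after their values were seen.

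SOCS3, a feedback inhibitor of JAK signalling, was lower in 4 of 4 animals at 1 day (258, 203, 220 and 165 in air, 212, 77.0, 64.3 and 69.3 in smoke). Its difference of −1.17 ± 0.24 missed the threshold with the block (adjusted p = 0.095) and passed without the S1 5-day air control (adjusted p = 0.0048). In the same fit PIAS1, a SUMO ligase that restrains cytokine signalling, was lower at 1 day (−0.36 ± 0.07, adjusted p = 0.0075).

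The remaining genes of smallest p in each list, without a block, did not pass. At 5 days they were the proteasome subunit PSMB9 (−0.77 ± 0.35), the kinases TYK2 (−0.32 ± 0.12) and TBK1 (0.34 ± 0.12), the phosphatase PTPN6 (−0.47 ± 0.15), the RNA-degrading enzyme PNPT1 (0.43 ± 0.13), the ubiquitin ligase TRIM21 (−0.48 ± 0.18), and 1 of the 2 rows of the tRNA synthetase WARS1 (ENSMMUG00000059881, 0.28 ± 0.28). At recovery they were the guanylate-binding GTPase GBP6 (−1.0 ± 0.53) and the adaptor MAVS (−0.29 ± 0.15). The WARS1 difference given for 5 days was about as large as its SE, and the other WARS1 row is not given here. The smallest adjusted p among these values was 0.30.

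Antigen presentation genes were also read with time in air. The rule for naming genes of the other lists covers smoke contrasts only. This list was picked outside it with its values known, and the remaining lists are not reported over time in air. Over the first interval 7 of 12 rose with the block and 0 fell, where 9.88% of all genes rose (B2M, CD74, PSMB8, PSMB9, PSMB10, PSME1 and PSME2). Over the second 6 fell and 0 rose, where 14.1% of all genes fell, the same genes apart from CD74. Without the S1 5-day air control 5 rose over the first and 6 fell over the second. In that blocked fit 1364 of 14062 genes rose over the first and 1900 fell over the second (18.6% and 27.1% passed in either direction). B2M was at 13795, 11566, 11279 and 12059 in 1-day air and at 21436, 18276, 14213 and 16920 in 5-day air, higher in each animal. PSMB8, an immunoproteasome subunit, went from 1326, 961, 813 and 1014 to 3116, 1342, 1051 and 1305, most in S1.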

How the data were processed

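RNA sequencing measured poly-A RNA of 24 libraries. FastQC, Trim Galore, Bowtie2 and RSEM are named in the submitters' processing notes, without versions. Build and normalizing tool: not given in the sources used here. The authors deposited 1 table of normalized signal per gene and library, named as raw counts. Its values are not whole numbers, and libraries share 1 scale, so tests for counts were not used and counting error is unknown.

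Values were analysed as log2(value + 1), and fold changes understate those of low genes. The test was limma 3.58.1 (R 4.3.3, trend on), two-sided, for 7 contrasts of 6 group means over 24 libraries, with no block. It covered 14062 of 35432 genes, those reaching 10 in 4 or more libraries. Calls were made at a Benjamini-Hochberg adjusted p under 0.05, and every adjusted p is from limma. The scripts were tested on simulated data.

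Replicate numbers are animals, so libraries are paired. Deviations from group means correlated at 0.303 to 0.804 within animals (median 0.612, 60 pairs) and at −0.443 to 0.0149 between animals (median −0.189, 180 pairs). The replicate block adds animal to the model.

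Members and lists were chosen with earlier results of these data known. Library values are given for members called in any contrast, the 3 of smallest p in each smoke contrast, those highest or most and least variable between animals, and a set always given. Of the other lists, genes called in a smoke contrast and the 2 of smallest p are named. Some genes of these lists are not reported here.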

Additional observations from a re-analysis of the deposited data

Results flagged for a closer look

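In 18 of 126 groups of 4 libraries, over the 21 members with library values, 1 library lay far from the other 3, by Dixon's test of the gap to its nearest neighbour. Chance marks about 1 in 20 independent groups. These members were chosen partly from the same values and the groups share libraries, so the 18 cannot be set against that rate. A share over all genes is not given here. The flagged OASL groups held 0 in S2 to S4. The 5-day air culture of S1 was the distant library for IFI35 (450), IRF1 (1926), ISG15 (184) and OASL (96.6), all high, and for PARP9 (278) and STAT2 (319), both low. Other S1 libraries were distant for OASL in 1-day air (17.2) and 1-day smoke (21.0), ISG15 in 5-day smoke (42.8), ADAR in recovery smoke (3388) and DTX3L in recovery air (1219), all high, and LGALS3BP in 5-day smoke (1739), low. S2 was high for MX2 in 1-day smoke (433) and for DDX60 (159) and SAMD9 (576) in 5-day air. S3 was low for OAS1 in 5-day air (285) and recovery smoke (266). S4 was low for BST2 in 1-day smoke (120).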

How the results depend on the processing

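With a replicate block for the paired animals, the members called went from 0 to 1 at 5 days, 1 at recovery and 1 for the change between them, and in air from 1 to 6 between 1 and 5 days and from 1 to 10 between 5 days and recovery. With the block and without the S1 5-day air control they were 1 at 1 day, 5 at 5 days, 3 at recovery, 5 for that change, and 6 and 9 in air. With the block and library totals as the scaling they were 1, 1 and 1 at 5 days, recovery and for the change, and 8 and 10 in air. Without a block, the air counts were 0 between 1 and 5 days without that control, 0 and 0 when only the libraries of the contrast were fitted, 2 with library totals, 2 and 4 with a stricter filter, and 2 and 5 at an adjusted p of 0.1. Library totals moved the members' median to −0.100 at 1 day and −0.0370 at 5 days in both fits. Without the S1 5-day air control it was −0.0119 at 5 days without a block. Leaving out 1 library or animal, the calls ranged from 0 to 1 at 1 day, 0 to 5 at 5 days, 0 to 6 at recovery, 0 to 5 for the change between the last 2, and 0 to 10 and 0 to 14 in air, with 7 without S2 or without the recovery air library of S4 and 11 without the 5-day air library of S2 for the later interval with the block. The medians ranged from −0.208 to 0.0467 at 1 day, −0.236 to −0.0119 at 5 days and 0.0325 to 0.195 at recovery. With the block, the 1-day median was −0.0797 without S3, −0.0653 without the air library of S4, and −0.0679 and −0.0726 without the smoke libraries of S1 and S3. The 5-day median was −0.187 without S1, −0.0609 without S3, −0.0700 without the air library of S2 and −0.157 without the smoke library of S1. TRIM22 in air between 1 and 5 days reversed to −0.0471 with library totals in both fits, to −0.0114 without S2 in both fits, to −0.0176 without the 1-day library of S4 and to −0.0139 without the 5-day library of S2 (up to 0.317 without S1). DTX3L at 5 days reversed to 0.00213 without S4 in both fits and was −0.315 without S1. The cause was not tested. Of the other values of single genes, 1067 kept direction and side of the threshold, 248 passed it newly and 14 fell short. Depth cannot be read from normalized counts, so low members such as OASL, ISG15 and IFIT5 have no counting interval.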
